A study of Mus musculus with 30 samples.

Results

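An F1 mouse carries one CC019 and one CC037 copy of each autosomal gene in the same liver cells, and the RNA from these alleles was compared here within each of 14 F1 mice. A gene was a member of the comparison when it lay on an autosome, when both alleles together passed 0.5 CPM (counts scaled to the depth of the library) in at least 7 of the 14 F1s, and when every one of the 15 inbred mice had at least 90% of the gene's allelic counts on the allele it carries. Of 42880 genes in the deposited counts, 12977 autosomal genes passed the CPM limit and 4057 passed both limits, or 9.46% of the genes in the files and 31.3% of autosomal genes with expression. The remaining expressed autosomal genes were 8738 under the limit of 90% and 182 without any allelic count in at least 1 inbred. Just inside that limit were *Dedd*† with a lowest share of 90.004% and *Zfp704*† with 90.02%, and just outside were *Entpd2*† with 89.997% and *Mdm1*† with 89.994%. Genes marked † were chosen after their values were seen, and all others are named by a fixed rule.

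RNA was sequenced from the median liver lobe of mice aged 4 months, from stranded polyA libraries. CC019/TauUnc and CC037/TauUnc are inbred strains of the Collaborative Cross, and their reciprocal F1s are named with the mother first. The comparison used 6 CC019 x CC037 F1s (3 males and 3 females) and 8 CC037 x CC019 F1s (3 males and 5 females), and the 6 CC019 and 9 CC037 inbreds served only to choose the genes. The F1 libraries were sequenced together and the inbreds in another batch, and total depth in the F1s ran from 27672008 to 63258035 expected counts with a median of 37775881. Genes kept held 33.2 to 35.8% of each F1's counts, and the inbreds had 0.596 to 1.12% of their counts on these genes assigned to the allele they lack.

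Both alleles of an F1 gene meet the same transcription factors, hormones and metabolites, so that a difference between them is used in genetics to describe variation that acts on its own chromosome. Hepatocytes secrete most plasma proteins, make bile acids, handle lipids, sugars and amino acids, and oxidise drugs. Many of their genes are expressed at different levels in male and female mice, in part through the rhythm of growth hormone release.

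The tissue was checked by markers. The 14 of 15 listed hepatocyte markers found in the files summed to 132713 to 183857 CPM per F1, with *Alb*† as the most abundant at a mean of 89916 CPM. Summed levels ran from 212 to 642 CPM for 15 Kupffer cell markers (*Cd5l* the most abundant), from 409 to 962 CPM for 15 sinusoidal endothelial markers (*Eng*), from 397 to 2014 CPM for 15 stellate cell markers (*Ecm1*), from 38.5 to 78.0 CPM for 10 cholangiocyte markers (*Spp1*†) and from 5.90 to 15.4 CPM for 15 lymphocyte markers (*Cd4*†).

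A pair of CC019 x CC037 libraries stood apart by markers of other tissues. Of 19 listed markers of adrenal gland, pancreas, fat and muscle, 17 were in the files, 2 passed the CPM limit and 0 were among the genes compared, and none was at 0 in every F1. Their sum was 2415 CPM in CC019 x CC037 male 3 and 2323 CPM in CC019 x CC037 female 1, against 7.24 to 62.4 CPM in the other 12 F1s. In male 3 the steroidogenic genes *Star*† at 1242 CPM, *Cyp11a1*† at 627 CPM and *Cyp11b1*† at 302 CPM were high, with at most 1.05, 0.335 and 0.105 CPM in any other F1. In female 1 the muscle genes *Acta1*† at 1408 CPM, *Ckm*† at 407 CPM and *Tnnt3*† at 337 CPM were high, with at most 0.157, 0.287 and 0.0523 CPM elsewhere, and the highest stellate cell sum of 2014 CPM came from this library. *Acta1* was the most abundant gene of the list. Leaving this pair out was not planned beforehand. Without this pair 1838 genes differed between the alleles in place of 1954, 1 between the crosses in place of 6 and 93 between the sexes in place of 83. The part of these tissues in any single result was not tested.

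Another library, CC037 x CC019 male 3, stood apart on chromosome 12. Over 93 genes of that chromosome its allelic log2 ratio lay 0.20 above the median of the F1s, with 69 genes shifted toward CC019, whereas the other 13 F1s lay between −0.06 and 0.04, with 33 to 52 genes shifted that way. Its CC019 alleles there were higher by 0.13 relative to other chromosomes and its CC037 alleles by 0.00. Leaving it out gave 48 genes different on chromosome 12 (29 with CC019 higher and 19 with CC037 higher) in place of 51 (32 and 19). A smaller shift was that of CC019 x CC037 male 2 on chromosome 16, at 0.11. Apart from these, the shifts of chromosomes in single F1s ran from −0.06 to 0.06.

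Nearly every second gene differed between the alleles. Of 4057 genes, 1954 (48.2%) passed the threshold of an adjusted p of 0.05, 995 with the CC019 allele higher (24.5%) and 959 with the CC037 allele higher (23.6%), and 2103 did not pass. The same allele was higher in all 14 F1s at 909 genes (22.4%), 479 for CC019 and 430 for CC037. Differences were small at most genes: the median size of the log2 ratio of CC019 to CC037 was 0.19, and 686 of the genes past the threshold had a log2 ratio under 0.25 in size. A log2 ratio of at least 1 was reached by 234 genes past the threshold (116 with CC019 higher and 118 with CC037 higher), and of at least 2 by 66 (36 and 30). At no gene was one allele at or under 3 counts in every F1.

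The alleles were close to balance as a whole. The median log2 ratio was 0.00, and 49.0 to 49.5% of the counts on these genes came from the CC019 allele in each mouse. That share was 49.3% (SD 0.218) over the 6 mice with a CC019 mother and 49.2% (SD 0.0651) over the 8 with a CC037 mother, a difference of 0.0764 percentage points that did not pass an exact permutation test over the mice (p = 0.364, adjusted p = 0.364). Females were lower than males by a difference of −0.0775, which did not pass either (exact permutation p = 0.355, adjusted p = 0.364). Single libraries moved both: the difference between crosses was 0.0277 without CC019 x CC037 female 1 and 0.133 without CC019 x CC037 female 4, and that between sexes −0.123 without CC019 x CC037 female 1 and −0.0345 without CC019 x CC037 male 4. With the median log2 ratio in place of the share, the difference between crosses turned its sign, to −0.0032. When each allele's own total was used as its library size, every log2 ratio rose by about 0.04, the counts became 1191 and 794, and 2 genes past the threshold turned their sign, the larger at a size of 0.04. Orders between the alleles in a gene group that turned under this scaling are given with both counts below.

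Most of the 10 most abundant genes among those compared encode proteins of plasma. Genes such as *Alb*, whose alleles could not be compared, are not among them. *Apoe* (ENSMUSG00000002985, chromosome 7 of GRCm38 from 19696109 to 19699188) encodes the apolipoprotein that brings remnant particles to liver receptors. Its CC019 allele was at 9965 to 13678 CPM (median 11234) and its CC037 allele at 13389 to 17994 CPM (median 16542). The ranges met only at their edges, and in each of the 14 F1s the CC037 allele was the higher one, with a log2 ratio of −0.55 (standard error 0.02, adjusted p = 4.7e-13). *Trf*, the plasma iron carrier transferrin, differed less at −0.19 (standard error 0.01), again with CC037 higher in 14 of 14. *Apoa2*, a protein of high-density lipoprotein, stood at −0.15, and *Fgb*, a fibrinogen chain, at −0.22. *Plg*, the precursor of plasmin, leaned the other way at 0.09 (standard error 0.01, 14 of 14 F1s), as did *Pzp*, a broad protease inhibitor of plasma, at 0.07. *Cps1*, which feeds ammonia into the urea cycle, did not pass at 0.00, but did at 0.05 with own totals and at 0.11 with counts corrected for wrong alleles in the inbreds. *Fga*, another fibrinogen chain, did not pass at −0.01, and turned to 0.03 and 0.21 under the same alternatives, where it passed.

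**Figure D1:**
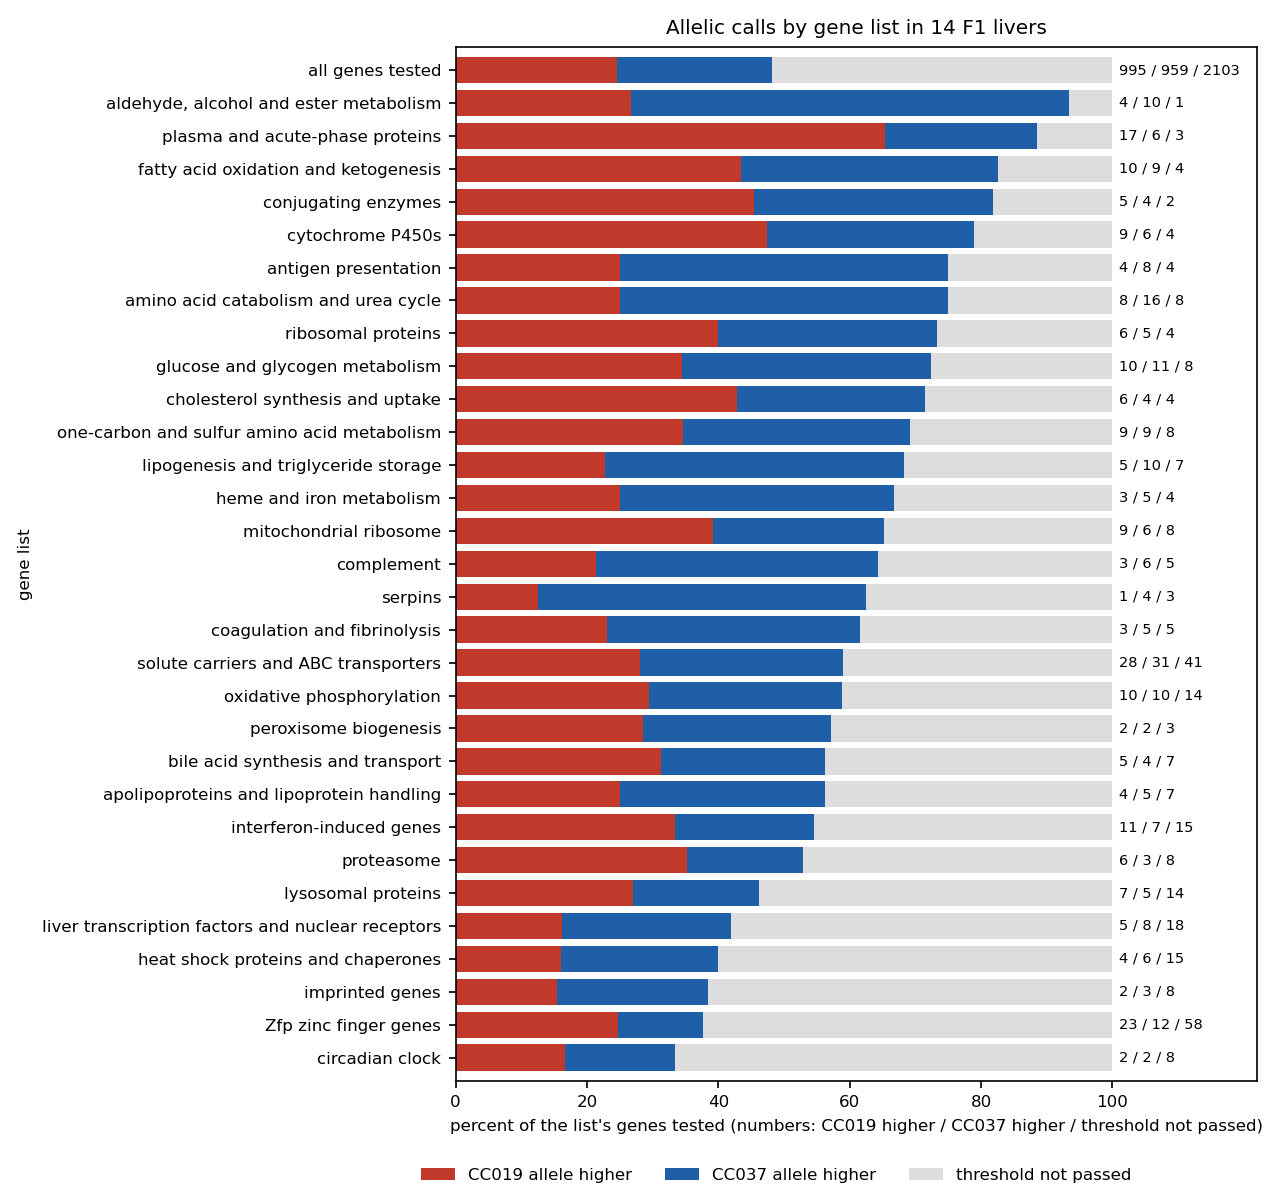
Percent of genes with the CC019 allele higher, with the CC037 allele higher and not past the threshold (adjusted p of 0.05) in lists of genes by function and over all genes tested, with the numbers beside the bars. Over all genes the bar holds 995, 959 and 2103, while 17 of 26 plasma proteins had CC019 higher and 16 of 32 genes of amino acid breakdown CC037 higher. The last list holds *Cyp4v3* in error, and without it 15 of 31 had CC037 higher.

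Past the threshold, a log2 ratio of at least 1 in size was reached by 5 of 19 cytochrome P450 genes. It was reached by 1 of 11 conjugating enzymes, 0 of 15 dehydrogenases, reductases and esterases, and 234 of all 4057 genes. Of 19 cytochrome P450 genes, 9 had CC019 higher, 6 had CC037 higher and 4 did not pass (9 and 3 with own totals). Their median log2 ratio was 0.21 against 0.00 over all genes. *Cyp2c23* (ENSMUSG00000025197, chromosome 19 from 44005022 to 44029208), which oxidises arachidonic acid, was at 112 to 256 CPM (median 179) from CC019 and 4.2 to 17.7 CPM (median 10.1) from CC037. The CC037 allele was low in every F1 and no range overlapped, with a log2 ratio of 4.07 (standard error 0.07, adjusted p = 3.4e-17, 14 of 14 F1s). *Cyp3a13*†, a drug oxidase, had a log2 ratio of 2.37 and *Cyp2u1*†, which hydroxylates long fatty acids, one of 1.30. In the opposite direction, *Cyp4v3*, an omega-hydroxylase of fatty acids, was at 62.2 to 119 CPM from CC019 and 167 to 427 CPM from CC037, so that its alleles did not overlap either (log2 ratio −1.54, standard error 0.04). *Cyp2f2*, which activates naphthalene and was the most abundant of the group, stood at −0.68.

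Conjugating enzymes were divided, with 5 of 11 higher from CC019, 4 higher from CC037 and 2 not past the threshold (median −0.13). *Tpmt*, which methylates thiopurine drugs, had a median of 39.3 CPM from CC019 and 13.6 CPM from CC037 with no overlap of their ranges, 28.9 to 58.2 against 9.37 to 24.3 CPM (log2 ratio 1.44, standard error 0.07). *Gstk1*†, a mitochondrial and peroxisomal glutathione transferase, stood at 0.97, and the microsomal *Mgst1* at −0.13. Dehydrogenases, reductases and esterases leaned to CC037, with 4 of 15 higher from CC019, 10 higher from CC037 and 1 not past the threshold (median −0.12), and the order was the same with own totals. *Aldh1b1*, which clears acetaldehyde in mitochondria, was at −0.80, the folate enzyme *Aldh1l1* at −0.20 and the deacetylase *Aadac* at 0.70. *Gulo*†, the last enzyme of vitamin C synthesis, which lies outside these lists, was at 122 to 210 CPM from CC019 and 360 to 578 CPM from CC037. Its CC037 allele was the higher by a wide margin in 14 of 14 F1s (log2 ratio −1.57, standard error 0.05).

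Bile acid genes had 5 of 16 higher from CC019 and 4 from CC037, with 7 not past the threshold (median −0.04, or 0.00 with own totals). *Abcc2*, which pumps conjugated bilirubin and drugs into bile, was at 313 to 530 CPM (median 347) from CC019 and 158 to 257 CPM (median 178) from CC037. The ranges were apart in all 14 F1s, at a log2 ratio of 0.98 (standard error 0.02, adjusted p = 3.9e-15). *Cyp8b1*†, which sets the share of cholic acid, was at 0.56, and *Cyp7a1*†, the first and rate-limiting enzyme of the main route from cholesterol, at 0.30. For *Cyp7a1* the ratio was 0.15 after correction for counts on the wrong allele in the inbreds. *Slc27a5*, which activates bile acids for conjugation, did not pass at −0.02, but did at −0.04 after the same correction. The uptake carrier *Slco1a1* depended on sex and is described with the sexes.

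Of 14 genes of cholesterol synthesis and uptake, 6 had CC019 higher, 4 CC037 higher and 4 did not pass (median 0.01, and 6 and 2 with own totals). *Npc1*, which releases cholesterol from lysosomes, was at 0.33 and *Msmo1*, a demethylase of sterol synthesis, at −0.42. Among 16 genes of lipoproteins, 4 had CC019 higher and 5 CC037 higher (5 and 5 with own totals), and 7 did not pass. *Lrp1* (ENSMUSG00000040249, chromosome 10 from 127538161 to 127621148), a receptor that takes up remnant lipoproteins and proteases, was at 309 to 458 CPM (median 394) from CC019 and 777 to 1039 CPM (median 927) from CC037. All 14 CC037 values lay above all CC019 values, with a log2 ratio of −1.25 (standard error 0.01, adjusted p = 3.8e-19). The transcript models of its alleles differ by 8.29% in length, and a part of this in the ratio was not tested. *Apoc2*†, the activator of lipoprotein lipase, was at −0.70 and the endothelial lipase *Lipg* at 0.35. *Lcat*, which esterifies cholesterol in plasma, did not pass at −0.02.

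Of 23 genes of fatty acid oxidation, 10 had CC019 higher, 9 had CC037 higher and 4 did not pass (median −0.02, or 0.03 with own totals). *Crot*, which prepares shortened acyl chains for export from peroxisomes, was at 0.65, *Acsl1*†, which activates long fatty acids, at 0.32 and *Bdh2*†, a cytosolic butyrate dehydrogenase, at −0.56. Of 22 genes of lipogenesis and fat storage, 5 had CC019 higher and 10 CC037 higher (6 and 6 with own totals), and 7 did not pass. *Hsd17b13*, a protein of lipid droplets, was at 0.40, *Lpin1*, which makes diacylglycerol, at −0.38, *Elovl5*†, which lengthens polyunsaturated fatty acids, at −0.37 and the fatty acid synthase *Fasn*† at 0.08.

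Sugar metabolism was evenly divided between the alleles. Of 29 genes of glucose and glycogen metabolism, 10 had CC019 higher, 11 CC037 higher and 8 did not pass (median 0.00). *Fbp1*†, a gluconeogenic phosphatase, was at 0.40 and the liver glycogen phosphorylase *Pygl*† at 0.37. *Sord*†, which turns sorbitol into fructose, had 294 to 529 CPM from CC019 and 619 to 1043 CPM from CC037, with a log2 ratio of −0.96 (standard error 0.02). *Slc2a9*†, a urate carrier, was at −0.97 and *Ldhb*, a lactate dehydrogenase subunit, at −1.07.

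Amino acid breakdown leaned to CC037, with 8 of 32 genes higher from CC019, 16 higher from CC037 and 8 not past the threshold (median −0.11, and 9 and 15 with own totals). The list holds *Cyp4v3* in error, and without it 15 of 31 had CC037 higher and 8 CC019 higher (median −0.06). *Agxt*†, which detoxifies glyoxylate, was at −0.66, *Tdo2*†, which opens the ring of tryptophan, at −0.38 and *Ivd*†, of leucine breakdown, at −0.61. *Kyat3*, a transaminase of kynurenine, was the highest at 0.66. One-carbon and sulfur metabolism had 9 of 26 higher from either allele (9 and 7 with own totals) and 8 not past the threshold. *Ethe1*, which oxidises sulfide products, was at 0.70, *Fpgs*†, which retains folates in cells, at 0.55, *Gnmt*†, which consumes S-adenosylmethionine, at 0.37, and *Mat1a*, which makes it, at 0.09. *Mthfd1l*, a mitochondrial folate enzyme with a mean of 2.23 CPM, was at −2.16 (standard error 0.54, CC037 higher in 13 of 14 F1s).

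Plasma and acute-phase proteins leaned to CC019, which was higher at 17 of 26 genes, with 6 higher from CC037 and 3 not past the threshold (median 0.09, and 18 and 4 with own totals). The 2 with the highest ratios were *Orm1*, an acute-phase carrier, at 2.47, and *Itih5*†, which binds hyaluronan, at 2.41. *Igfbp3*†, the main carrier of IGF-1, was at 0.92, and the lipoprotein-bound esterase *Pon3* was the lowest at −1.14. The copper oxidase *Cp* was at −0.43. Of 8 serpins, 1 had CC019 higher, 4 CC037 higher and 3 did not pass (median −0.15). *Serpine2*, an inhibitor of thrombin and plasmin, had a log2 ratio of 3.58, and *Serpina3n*†, an inhibitor of granzyme and elastase, was at 166 to 250 CPM from CC019 and 300 to 491 CPM from CC037 (log2 ratio −1.07, 14 of 14 F1s).

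Complement held a wide allelic range, with its lowest ratio at *C5ar2*, a gene of low expression. Of 14 genes, 3 had CC019 higher, 6 CC037 higher and 5 did not pass (5 and 6 higher with own totals). The median was −0.04, or 0.00 with own totals. *Hc*† (ENSMUSG00000026874, chromosome 2 from 34983331 to 35061438), complement component C5, was at 95 to 176 CPM (median 119) from CC019 and 313 to 689 CPM (median 436) from CC037. The alleles were apart in 14 of 14 F1s, at a log2 ratio of −1.88 (standard error 0.03, adjusted p = 6.8e-17). *C5ar2*, a receptor of C5a, was also higher from CC037, at a log2 ratio of −3.27 and a mean of 1.03 CPM in all. *Colec11*, a lectin that starts the cascade, was at 0.68, *Cfi*†, which cleaves C3b, at 0.42, and *Cfb*, of the alternative pathway, did not pass at 0.03 but did at 0.07 with own totals. Coagulation had 3 of 13 higher from CC019 and 5 from CC037 (6 and 4 with own totals), and 5 not past the threshold. *Mst1*, a relative of plasminogen, was at 0.40, *F11*†, clotting factor XI, at −0.65, *Mcfd2*†, which carries factors V and VIII out of the endoplasmic reticulum, at −0.84, and *Tfpi*, the inhibitor of tissue factor, at −0.94.

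Antigen presentation had 4 of 16 genes higher from CC019 and 8 from CC037 (5 and 4 with own totals), with 4 not past the threshold. *Tap2*, a subunit of the peptide pump, was at 0.81 (27.5 to 47.6 CPM from CC019, 14.5 to 26.5 CPM from CC037) and *Psmb9*†, of the immunoproteasome, at 0.66. These ranges did not overlap for *Tap2*. Class II genes on chromosome 17 differed among themselves, with *H2-Eb1* at −6.07, *H2-Ab1*† at −0.23 and *H2-Aa*† at 0.20. Interferon-induced genes had 11 of 33 higher from CC019, 7 from CC037 and 15 not past the threshold (median 0.06), among them *Xaf1*, which promotes cell death, at 1.92, *Trim56*†, of antiviral sensing, at −0.72 and the guanylate-binding *Gbp3* at −0.86. Reads of near-identical copies, as among H2, cytochrome P450, glutathione transferase, serpin, orosomucoid and ribosomal protein genes, can be placed on the wrong gene, and this was not tested.

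Transporters were the largest list, 28 of 100 with CC019 higher and 31 with CC037 higher (31 and 29 with own totals), and 41 not past the threshold. *Slc3a1*, the heavy chain of a cystine carrier, was the lowest at −5.99, with 0.354 to 1.26 CPM from CC019 and 34.8 to 61.9 CPM from CC037. *Slc44a1*†, a choline carrier, was at −1.29, *Slc35c2*, a nucleotide sugar carrier of the Golgi, at 1.34 and *Slc12a7*†, a potassium chloride cotransporter, at 1.11. Heme and iron genes had 3 of 12 higher from CC019 and 5 from CC037 (4 and 3 with own totals), with *Slc39a14*, which imports iron, at 0.77.

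Ribosomal proteins had 6 of 15 higher from CC019, 5 from CC037 and 4 not past the threshold (median −0.01, or 0.04 with own totals). *Rpl12* was at 1.97 to 3.21 CPM (median 2.68) from CC019 and 45.7 to 65.1 CPM (median 56.7) from CC037. Its CC019 allele was low in all 14 F1s (log2 ratio −4.44, standard error 0.06), its transcript models differ by 4.92% in length, and the part of these models was not tested. *Rplp1*, of the ribosomal stalk, was at 0.96 and had no such difference between its models. The mitochondrial ribosome had 9 of 23 higher from CC019, 6 from CC037 and 8 not past the threshold (median 0.06), with *Mrpl50* at 0.65 and *Mrps28* at −0.46. Oxidative phosphorylation had 10 of 34 higher from either allele (14 and 8 with own totals) and 14 not past the threshold, with the assembly factor *Cox18* at 0.81, the cytochrome oxidase subunit *Cox5b*† at 0.79 and *Ndufa7*, of complex I, at −0.42.

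Of 17 proteasome genes, 6 had CC019 higher, 3 CC037 higher and 8 did not pass (median 0.02), and *Psmd9*, an assembly chaperone, was the lowest at −0.52. Peroxins had 2 of 7 higher from either allele and 3 not past the threshold, with the membrane receptor *Pex19* at 0.26. Of 25 chaperones, 4 had CC019 higher, 6 CC037 higher (4 and 4 with own totals) and 15 did not pass. *Dnajc10*, a disulfide reductase of the endoplasmic reticulum, was at −0.90 and *Dnajc25* at 0.44. Lysosomal genes had 7 of 26 higher from CC019, 5 from CC037 and 14 not past the threshold (median −0.01, or 0.03 with own totals). *Ctsc*, the protease that activates granule proteases, was at 19.3 to 54.6 CPM from CC019 and 39.1 to 136 CPM from CC037, ranges that overlapped between mice although CC037 was higher within each (log2 ratio −1.23), and *Ppt2*, a thioesterase, was at 0.72.

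Of 31 liver transcription factors, 18 did not pass, 5 had CC019 higher and 8 CC037 higher (5 and 3 with own totals). *Atf6*, a sensor of misfolded proteins, was at 0.48, the glucocorticoid receptor *Nr3c1*† at 0.28 and *Hnf4a*, which maintains the hepatocyte state, at 0.09. Of 12 clock genes, 8 did not pass and 2 were higher from either allele (3 and 0 with own totals), with the repressor *Bhlhe41* the highest at 1.31 and *Per2*†, another, at 0.81. Of 93 Zfp genes, 58 did not pass, 23 had CC019 higher and 12 CC037 higher (median 0.06), with *Zfp518b* the highest at 1.65 and *Zfp619* the lowest at −1.02. Among the lists by function, the share past the threshold ran from 33.3% in the clock list to 93.3% among dehydrogenases, reductases and esterases, against 48.2% over all 4057 genes. Depth moved with this share: it was 35.1% in the lowest of 4 equal groups of genes by expression (median 2.98 CPM, median standard error 0.188) and 65.8% in the highest (median 98.1 CPM, median standard error 0.0331). The part of depth in the list shares was not tested.

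Few markers of other liver cells were among the genes compared, and their shares past the threshold are to be read beside the 48.2% over all genes. All 7 Kupffer cell markers passed, 3 with CC019 higher and 4 with CC037 higher, among them *Cd5l*, which protects macrophages from death, at 0.42, *Timd4*, which binds dying cells, at 0.61 and *C1qc*, of complement C1q, at −0.60. Sinusoidal endothelial markers had 3 of 6 higher from CC019 (5 of 6 with own totals) and 3 not past the threshold, with the receptor *Tie1* at 0.29. Stellate cell markers had 2 of 9 higher from either allele and 5 not past the threshold, with the signalling regulator *Rgs5* at −0.86 and the matrix protein *Reln* at 0.35. The biliary factor *Sox9* was at −0.60, the 1 of 3 cholangiocyte markers that passed, and the 1 lymphocyte marker compared, *Cd79a*, did not pass. Of 6 hepatocyte markers, 3 had CC019 higher, 2 CC037 higher and 1 did not pass. For a gene expressed in several cell types, a difference in all of them and a larger one in some of them cannot be told apart in whole liver.

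Along the chromosomes, differences were found on every autosome. The share past the threshold ran from 38.8% on chromosome 15 to 56.7% on chromosome 5, and the median log2 ratio from −0.06 on chromosome 10 to 0.07 on chromosome 12. Among genes past the threshold, CC019 was the higher allele at 39.0% on chromosome 10 and 65% on chromosome 16. The share of expressed genes that could be compared differed far more, from 8.39% (37 of 441) on chromosome 16 to 45.2% (155 of 343) on chromosome 18. Of 242 windows of 10 Mb with at least 10 expressed genes, 12 held 0 genes that could be compared, among them 20 to 30 Mb of chromosome 17 with 164 expressed genes, while 42 held more than 50%.

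**Figure D2:**
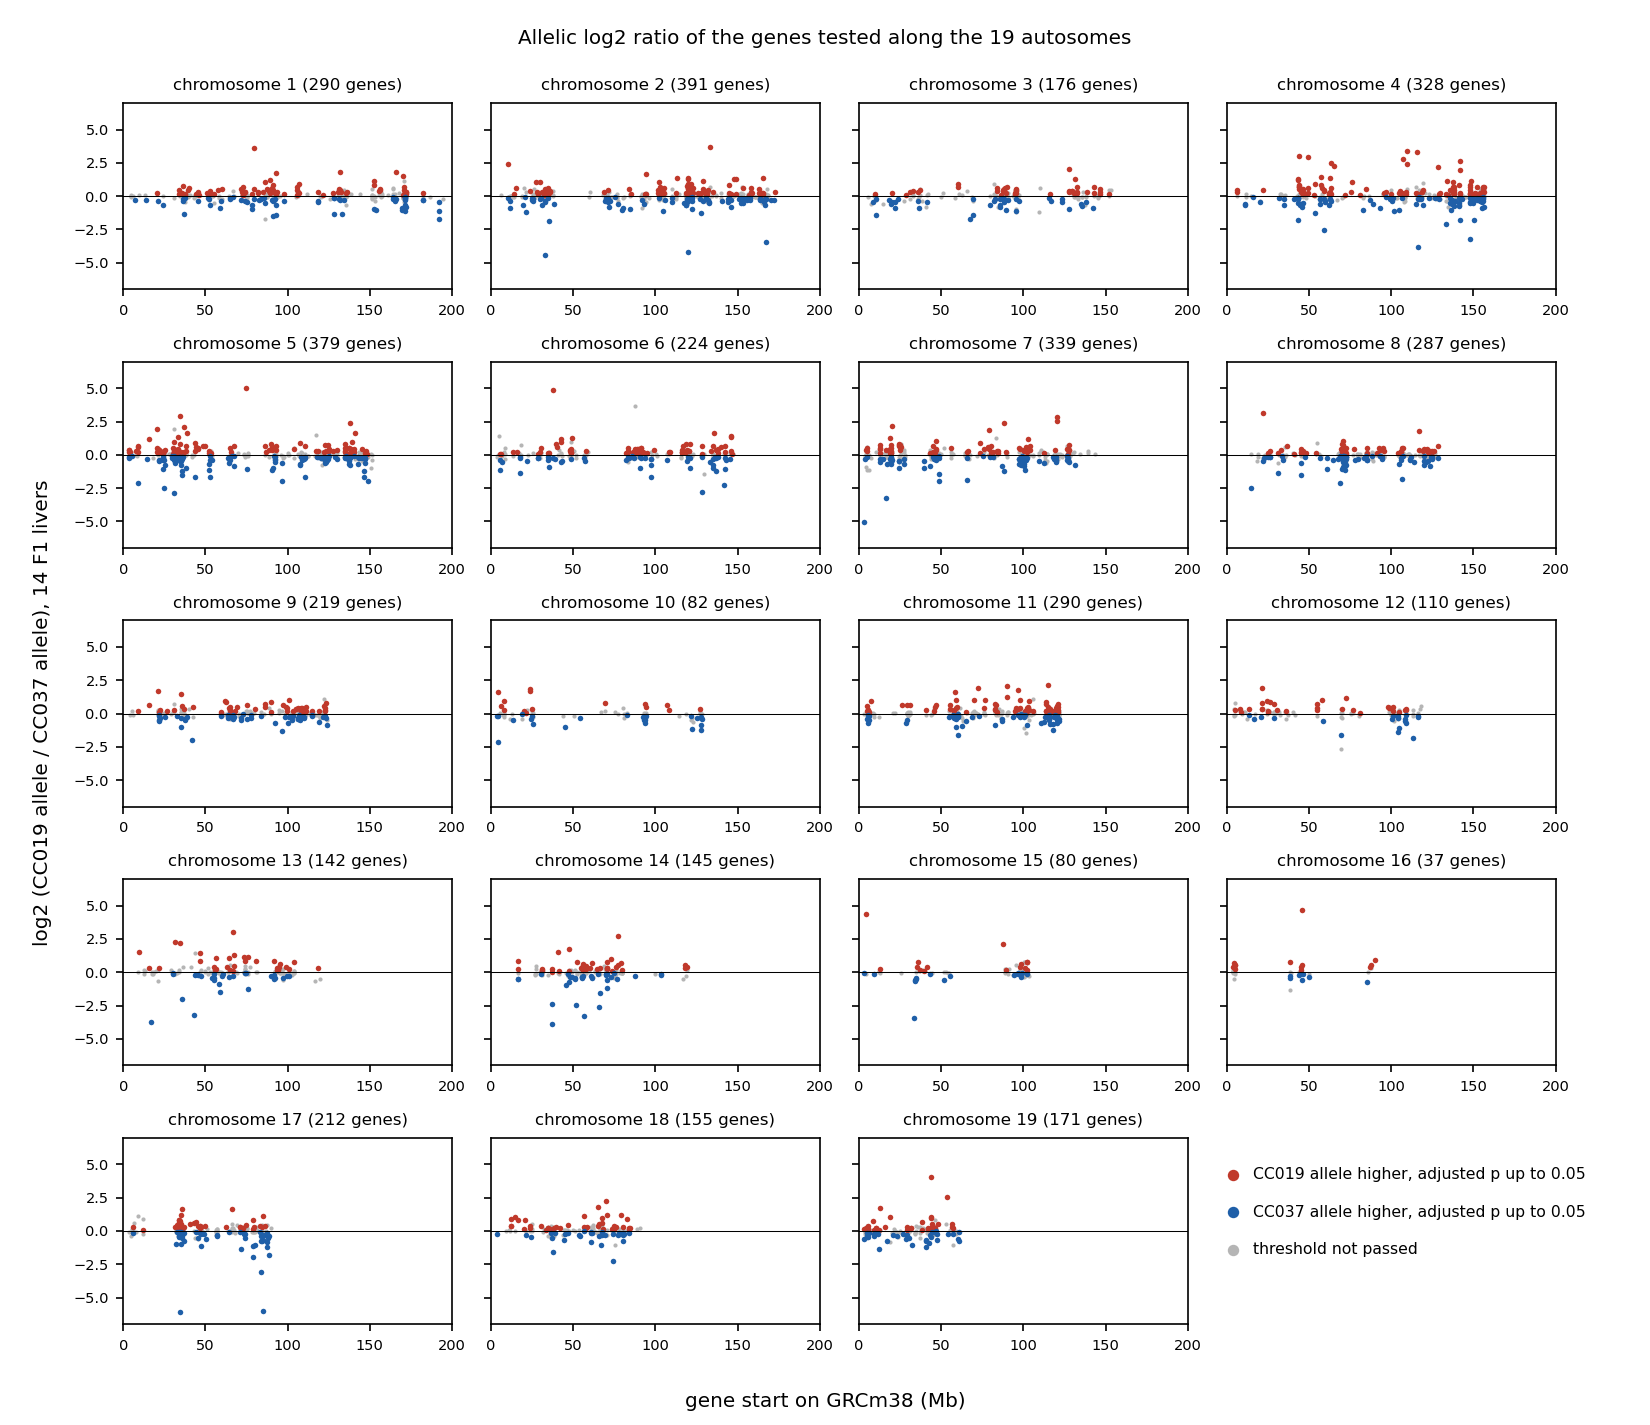
Log2 ratio of the CC019 to the CC037 allele of each of the 4057 genes tested, at its start on GRCm38 along each autosome. Genes past the threshold lie on both sides of 0 on every autosome. Gaps without points include stretches where expressed genes did not pass the own-allele limit and stretches with few expressed genes. All panels share one axis length, so the space past the end of shorter chromosomes is also empty.

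Among genes with a mean of at least 10 CPM, the one with the largest ratio on each autosome came from many pathways. Those described in other paragraphs are *Serpine2* (chromosome 1), *Rpl12* (chromosome 2), *Cyp4a14* (chromosome 4), *Slco1a1* (chromosome 6), *H2-Eb1* (chromosome 17) and *Cyp2c23* (chromosome 19). The others follow. On the CC019 side these were *Tifa* on chromosome 3, an adaptor of innate signalling, at 2.03, *Sh3bp2* on chromosome 5, an adaptor of immune receptors, at 2.91, *Vnn1* on chromosome 10, which makes pantothenate, at 1.86, *Pctp* on chromosome 11, a phosphatidylcholine carrier, at 2.07 and the esterase *Iah1* on chromosome 12 at 1.92. *Sp1* on chromosome 15, a general transcription factor, followed at 0.78, the phospholipase *Pla1a* on chromosome 16 at 0.73 and the unnamed gene AC157910.3 on chromosome 18 at 1.76. On the CC037 side were *Nlrp12* on chromosome 7, an inhibitor of inflammation, at −5.03, *Arhgef10* on chromosome 8 at −2.48, *Sorl1* on chromosome 9, a sorting receptor, at −2.02, *Sugct* on chromosome 13, which handles glutarate, at −3.77 and *Lrit1* on chromosome 14 at −2.37. In all 14 F1s the allele named was the higher one at each of these 13 genes.

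Neighbouring genes were only slightly alike. Of 998 pairs of neighbours that both passed, 553 (55.4%) had the same allele higher, and the share was 60% for 70 overlapping pairs and 54.9% at a distance over 100 kb. Among 82 windows of 10 Mb with at least 10 genes past the threshold, CC019 was higher at 10% (1 of 10) on chromosome 2 from 70 to 80 Mb and at 81.8% (9 of 11) on chromosome 12 from 20 to 30 Mb. Runs were counted over successive genes past the threshold, with genes that did not pass skipped. The longest with one allele higher was 13 genes on chromosome 3 from 127789805 to 132950291, from *Tifa* to *Npnt*†, with CC019 higher and a median log2 ratio of 0.34. It included *Cfi*, *Cyp2u1* and *Hadh*†, a dehydrogenase of beta-oxidation. A run of 10 genes with CC037 higher lay on chromosome 2 from 71055328 to 80354043, from *Dcaf17*† to *Dnajc10* (median −0.41), one of 9 with CC019 higher on chromosome 12 from *Itgb1bp1*† to *Colec11* (median 0.68), and one of 8 with CC037 higher on chromosome 17 from *Epas1*†, the oxygen-regulated factor, to *Ston1*† (median −0.46). No test of such runs was made.

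The allelic ratio seldom depended on which strain was the mother. Between the crosses 6 of 4057 genes differed (0.148%), against 259 at an unadjusted p under 0.05, and DESeq2 called 17. *Sgce* (ENSMUSG00000004631, chromosome 6 from 4674350 to 4747207), an imprinted gene of the sarcoglycan complex that is expressed from the father's copy, had 0 CC019 counts in all 6 CC019 x CC037 F1s, against 50 to 412 CC037 counts (median 87). In the 8 CC037 x CC019 F1s it had 63.3 to 131 CC019 counts and 0 to 3.66 CC037 counts, with 5 of 8 at 0. The father's allele was the one expressed in each of the 14 mice, and over the 6 CC019 x CC037 F1s the CC037 allele was at least 300-fold higher with a floor of 3 counts over the group, counting error only. Without CC019 x CC037 male 3, which holds the 412 counts, the bound was 163-fold. Over the 8 CC037 x CC019 F1s the summed CC019 counts were 129 times the CC037 counts, and 266 times without CC037 x CC019 male 2 (95% interval from counts 85.7 to 1479).

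*Orm1* kept CC019 the higher allele in both crosses but to a different degree. From CC019 it was at 101 to 206 CPM (median 131) in CC019 x CC037 F1s and 203 to 294 CPM (median 238) in CC037 x CC019 F1s, and from CC037 at 10.1 to 22.7 CPM (median 14.9) and 45.1 to 96.5 CPM (median 61.8). Both alleles were lower when the mother was CC019, with ranges that met for the CC019 allele and were apart for the CC037 allele, and the difference between the crosses was 1.27 (standard error 0.17, adjusted p = 0.0051), with no overlap of the mice's ratios, 2.50 to 3.62 against 1.61 to 2.18. Markers of cell types also moved with the cross. The hepatocyte sum of CC019 x CC037 against CC037 x CC019 F1s was 158964 to 165541 CPM against 170172 to 183857 CPM in females and, the other way round, 149763 to 156406 CPM against 132713 to 140477 CPM in males. That sum is largely the single gene *Alb*, at a mean of 89916 CPM over the F1s. The stellate cell sum in females was 841 to 2014 CPM against 488 to 652 CPM (841 to 930 CPM without CC019 x CC037 female 1), and the cholangiocyte sum in males 38.5 to 56.5 CPM against 73.2 to 78.0 CPM. The other marker sums overlapped between the crosses in each sex. Without CC019 x CC037 female 1, the sinusoidal endothelial sum in females was also apart, at 852 to 962 CPM against 558 to 811 CPM. So was the sum of markers of other tissues, at 7.24 to 7.36 CPM against 19.6 to 23.0 CPM. Most of this sum was the single gene *Cela1*†, at 5.65 and 6.25 CPM against 17.8 to 22.1 CPM. The part of cell types in these differences was not tested. *Rap1gap*, which switches off the GTPase Rap1, had ratios of −0.21 to 0.80 in CC019 x CC037 F1s and 0.92 to 2.92 in CC037 x CC019 F1s (difference −1.68, adjusted p = 0.013). *Cobl*, an actin nucleator that is imprinted in some tissues, had CC019 higher in the first cross (0.13 to 0.33) and CC037 higher in the second (−1.08 to −0.17), a difference of 0.82 (adjusted p = 0.025). The other genes were *Tuba4a*, a tubulin, at a difference of 0.44, and *Ebpl*, a relative of a sterol isomerase, at 0.22.

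These calls were fragile except for a few. When single F1s were left out, *Sgce* and *Orm1* passed in 14 of 14 cases, *Rap1gap* in 13 (its difference was −1.66 without CC019 x CC037 male 3), *Cobl* in 6, and *Tuba4a* and *Ebpl* in 3 each, with differences of 0.75 to 0.89, 0.39 to 0.48 and 0.21 to 0.24. The number of genes was 2 without CC019 x CC037 male 3, and 3 without each of CC019 x CC037 female 2, CC037 x CC019 male 2, CC037 x CC019 female 1 and CC037 x CC019 female 3. Of the 6 genes, *Sgce* alone passed without the pair of libraries with markers of other tissues, which leaves 4 CC019 x CC037 F1s, but the other differences kept their sign and much of their size: 1.15 at *Orm1*, −1.65 at *Rap1gap*, 0.80 at *Cobl*, 0.47 at *Tuba4a* and 0.23 at *Ebpl*. Of 13 genes on a list of imprinted genes, 2 had CC019 higher and 3 CC037 higher (3 and 2 with own totals), and 8 did not pass. Apart from *Sgce* and *Cobl*, none of the 13 passed the test between the crosses, among them *Slc38a4*, an amino acid carrier, at a log2 ratio of −0.07 (−0.03 and not past the threshold with own totals).

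Sex changed the allelic ratio at more genes than the cross. The ratio differed between females and males at 83 genes (2.05%), 34 with a higher ratio in females and 49 with a lower one, against 423 at an unadjusted p under 0.05, and DESeq2 called 139. The difference was at least 1 in size at 15 genes, and the ratios of the 8 females and the 6 males did not overlap at 50, against 54 of all 4057 genes (1.33%). The size of the ratio was larger in females at 30 genes and in males at 53. Markers of cell types moved with sex as well: the Kupffer cell sum was 449 to 642 CPM in females and 212 to 354 CPM in males, and the hepatocyte sum 158964 to 183857 CPM and 132713 to 156406 CPM, without overlap. The hepatocyte sum is largely the single gene *Alb*, at a mean of 89916 CPM. Whether allelic ratios follow the cells of a sex was not tested. Of the 83 genes, 62 also differed between the alleles over all F1s (74.7%, against 48.2% of all 4057 genes), and 35 belonged to at least 1 of the lists (42.2%, against 17.6%).

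**Figure D3:**
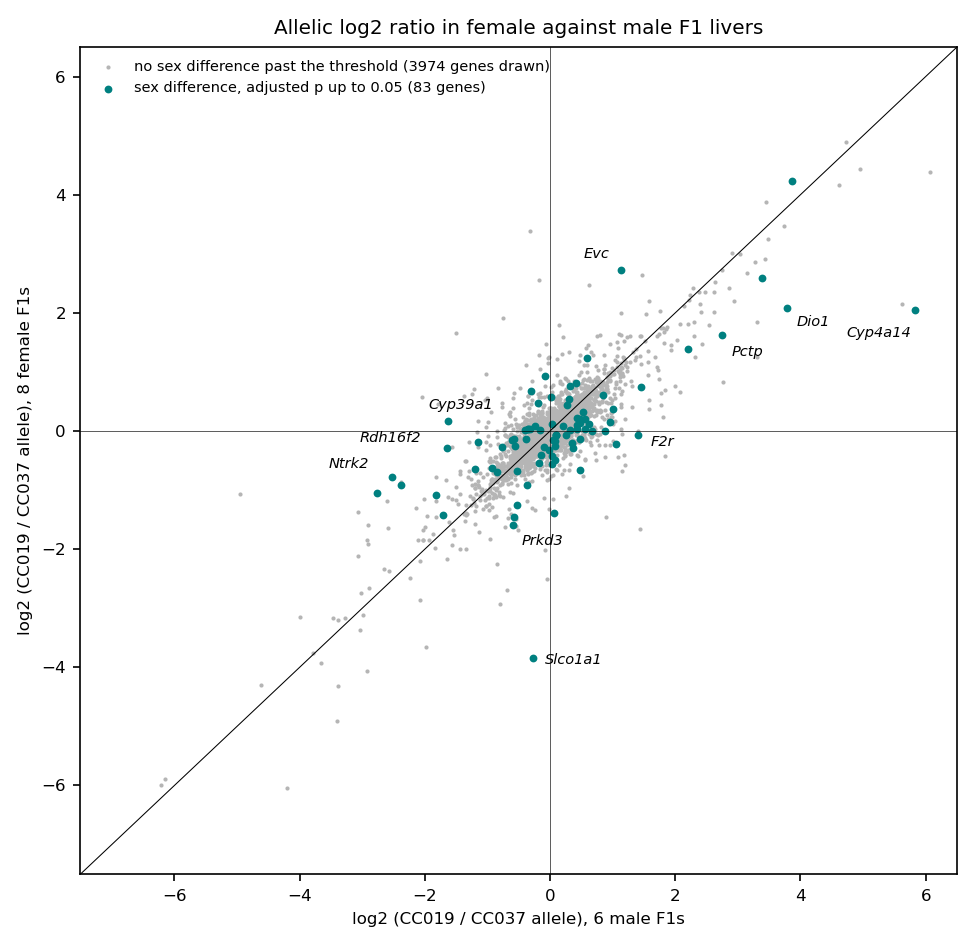
Allelic log2 ratio of each of the 4057 genes in the 6 male F1s (x axis) and in the 8 female F1s (y axis), with the 83 genes past the threshold of the test between the sexes drawn apart from the rest. *Slco1a1* lies far below 0 on the female axis and near 0 on the male axis, and *Cyp4a14* has a higher ratio in males.

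*Slco1a1* (ENSMUSG00000041698, chromosome 6 from 141907282 to 141946962), a carrier that takes up bile acids and steroids and is known as a male-biased gene, had the clearest dependence on sex. In females the CC019 allele was at 3.32 to 43.3 CPM (median 10.1) and the CC037 allele at 71.2 to 280 CPM (median 192). In males they were at 339 to 473 CPM (median 402) and 439 to 538 CPM (median 495). Both alleles were lower in females, without overlap between the sexes, and the CC019 allele by the larger fold. The log2 ratio was −3.84 in females and −0.28 in males, a difference of −3.56 (standard error 0.24, adjusted p = 1.2e-06), with the CC037 allele higher in all 14 F1s.

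*Cyp4a14*, a fatty acid omega-hydroxylase, had the opposite layout. From CC019 it was at 80.6 to 595 CPM in females and 86 to 117 CPM in males, and from CC037 at 11.3 to 483 CPM in females and 0 to 6.31 CPM in males. The CC037 allele was nearly silent in males alone, with log2 ratios of 2.04 in females and 5.83 in males, the latter dependent on the prior count (difference −3.69, adjusted p = 0.014). *Dio1*, which activates thyroid hormone, was likewise more unequal in males, at 2.08 and 3.79, with a CC037 allele at 2.42 to 27.2 CPM in females and 1.59 to 4.63 CPM in males (difference −1.69, adjusted p = 0.0023).

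Of 16 genes in the bile acid list, 6 depended on sex, beside 6 of 19 cytochrome P450 genes. Lists can share genes, so the same gene can be in both counts. Among genes of cholesterol synthesis and uptake 0 of 14 depended on sex by edgeR, against 2.05% of all genes. No test of the lists was made. *Cyp39a1*, which hydroxylates 24-hydroxycholesterol, had nearly even alleles in females (0.17) and CC037 higher in males (−1.64), a difference of 1.79 (adjusted p = 8.8e-04). *Cyp8b1* was at 0.75 and 0.31, *Abcg5*†, which secretes sterols into bile, at −0.15 and −0.60, and *Akr1d1*†, a reductase of bile acid synthesis, at −0.43 and 0.04. The last thus had CC037 higher in females, where it passed, and a ratio near 0 in males. The signs of females and males were opposite at 27 of the 83 genes, and at 4 of these both sexes passed.

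Drug and retinoid enzymes were further examples. *Cyp2f2* was at −0.92 in females and −0.37 in males (difference −0.55, adjusted p = 1.5e-06), and *Aldh1a1*†, which makes retinoic acid, at −0.40 and −0.15 (difference −0.26, adjusted p = 1.5e-06). For both, CC037 was higher in 14 of 14 F1s and the ratios of the sexes did not overlap. *Rdh16f2*†, a retinol dehydrogenase, went the other way at −0.28 and −1.64. In lipid handling, *Crot* was at 0.38 and 1.01 and *Pctp* at 1.62 and 2.75. Among proteins of signalling and defence, the kinase *Prkd3*† was at −1.58 and −0.60, the complement component *C8b*† at −1.46 and −0.57, the neurotrophin receptor *Ntrk2* at −0.78 and −2.53 and the thrombin receptor *F2r* at −0.06 and 1.41, with its CC019 allele at 4.24 to 9.35 CPM in females and 24.6 to 47.5 CPM in males. At low expression, *Chmp4c*, of membrane scission, was at −0.92 and −2.38, and *Hsbp1l1*, a relative of a heat shock factor binding protein, at −1.39 and 0.06. The calls of *Evc*, of the primary cilium (difference 1.60), and of *Lmod3*, of muscle filaments (1.71), held in 6 and 4 of 14 cases with 1 F1 left out, with differences of 1.47 to 1.82 and 1.42 to 1.97 over these cases and the other alternatives. That of *Lmod3* was also lost without the pair with markers of other tissues. The total was higher in females by medians at 43 of the 83, given without the share over all genes and not read as a lean of these genes. The 83 genes had a median expression of 77.5 CPM, against 19.7 CPM over all genes tested.

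Each of the 14 F1s was at least 1 log2 unit from the median ratio at 62 to 188 of the 3548 genes with at least 50 counts in every F1. At 86 genes at least 90% of counts came from CC019 in some F1 and at most 10% in another, and 23 of these had at least 50 counts in every F1. Among those with the largest spread, apart from *Sgce*, were *Adprh*, which removes ADP-ribose from proteins, with log2 ratios from −10.10 to 9.98, the adhesion adaptor *Nedd9* from −8.28 to 9.39 and the histidine methyltransferase *Mettl18* from −8.01 to 8.23. At each of these, almost all counts were assigned to the CC019 allele in some F1s and to the CC037 allele in others. The outermost ratios rest on alleles at or near 0 counts. Of the 23 genes with at least 50 counts in every F1, 0 passed between the alleles, with a median standard error of 0.709. The part of wrong assignment of reads to alleles in these values was not tested. The direction did not pass the test between the crosses or the sexes at these 3 genes. At *Adprh* every CC019 x CC037 F1 had CC037 higher (−9.63 to −1.61), and both ends of its range came from the other cross.

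**Figure D4:**
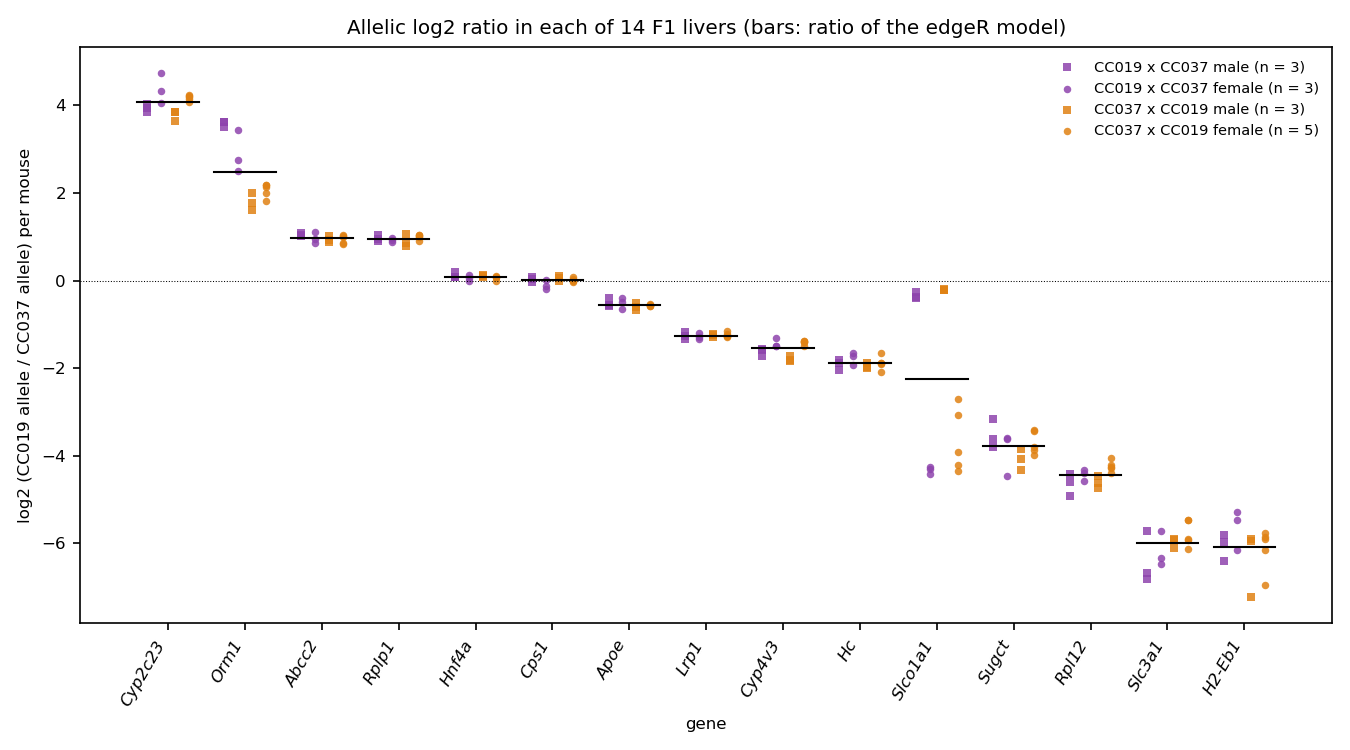
Allelic log2 ratio in each of the 14 F1s at named genes, with the crosses told apart by colour and the sexes by marker, and a bar at the ratio of the edgeR model. *Abcc2* and *Lrp1* keep a narrow range, *Slco1a1* divides the sexes and *Orm1* divides the crosses.

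Genes were also counted by transcript model and class. Of 736 genes whose transcript models differ between the strains by more than 1% in length, 64.0% passed, against 44.7% of 3321 genes with like models, and the part of the models was not tested. Protein-coding genes made up 3912 of the 4057 and passed at 48.3%, and the 145 others passed at 43.4%, among them 19 of 38 lincRNAs and 21 of 42 antisense RNAs. Of the genes compared, 267 pairs overlap on the chromosome, where a stranded library separates only genes on opposite strands. The count of 1954 fell to 1284 with alleles treated as unpaired samples, to 1284 in the 6 males alone and to 1133 in the CC019 x CC037 F1s alone, and stayed within 1.5 times under the other alternatives.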

How the data were processed

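The authors quantified liver RNA-seq reads with Salmon 1.9.0 against transcripts of both strains, built from strain-specific genomes and annotations. They deposited expected counts per gene for the CC019 and the CC037 allele of each mouse. Gene names, classes and positions were taken here from GENCODE M21 on GRCm38. These deposited expected counts were rounded for the tests. The p-values and standard errors therefore leave out the uncertainty of assigning reads to alleles, and the study's own test, which uses inferential replicates, was not run. Both alleles of an F1 come from the same mouse, so the 28 allele columns of 14 F1s were compared with the mouse as block. The library size of both columns was the mouse's total over both alleles and all genes, and CPM are relative to that total.

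Allelic ratios, their difference between crosses and their difference between sexes went through quasi-likelihood F-tests in R 4.3.3, using edgeR 4.0.16 and limma 3.58.1, over all 4057 genes kept, two-sided, with Benjamini-Hochberg adjustment over these genes and a threshold of 0.05. Standard errors are the size of the log2 ratio over the root of F. DESeq2 1.42.0 was the second tool, and both were tested on simulated data with known changes. Ratios of single mice were computed in Python 3.11.15 with 0.01 CPM added, and a floor of 3 counts was used for bounds. Shares of counts were compared with exact permutation tests over the mice. Floors and errors from counts cover counting only, and 95% is the level of the intervals in the tables.

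Genes were kept with a CPM limit of 0.5 and an own-allele limit of 90%. CC019 x CC037 female 5, which is deposited, was left out and used only as an alternative. The paper set aside a female of this cross with a single X chromosome and another whose expression stood apart, and the labels do not say whether this mouse is one of them. Named genes are, by rule, the 10 most abundant, the highest and lowest gene past the threshold and the most abundant member of each list, the gene with the largest ratio and at least 10 CPM on each autosome, up to 10 genes each that differ between crosses and sexes, those with the largest spread and at least 50 counts, and imprinted genes. The text leaves out some of them, among these genes whose call was lost without 1 F1, so the genes named are not an even picture of the rule. Gene lists were written from general knowledge of function, and the members and lists were chosen with earlier results of these data known. Lists were described without a test. Alternatives were another tool, an exact Wilcoxon signed-rank test, no block, 2 other scalings, other filters, corrected counts, genes with like transcript models, subsets of mice and each F1 left out.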

Additional observations from a re-analysis of the deposited data

Results flagged for a closer look

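Of 318 groups of values examined, 16 held a sample far from the rest of its group, and chance gives about 1 in 20 groups. No library held more than 3 of these. CC019 x CC037 female 4 was far in the allelic log2 ratio of *Pzp* (0.17), *Aldh1b1* (−0.62) and *Aldh1l1* (−0.032), CC019 x CC037 male 2 in *C5ar2* (−5.88) and *Igfbp3* (1.67), and CC019 x CC037 male 4 in *Rap1gap* (0.80) and *Adprh* (−9.63). Single values were those of CC019 x CC037 female 1 in *Tpmt* (1.87) and CC019 x CC037 female 2 in *Lrit1* (−5.44). In the other cross, CC037 x CC019 male 1 was far in *Mthfd1l* (−7.16) and *Serpine2* (4.23), and CC037 x CC019 male 3 in *H2-Ab1* (−0.48), *Pygl* (0.75) and its chromosome 12 as a whole (0.20). The last were CC037 x CC019 female 2 in *Trim56* (−0.31) and CC037 x CC019 female 3 in *Hnf4a* (−0.0023).

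Between the crosses, the difference in allelic log2 ratio passed the test at *Sgce* (−17.15, a fitted value that depends on the prior count), *Orm1* (1.27), *Rap1gap* (−1.68), *Cobl* (0.82), *Tuba4a* (0.44) and *Ebpl* (0.22). Between females and males it passed among named genes at *Slco1a1* (−3.56), *Cyp4a14* (−3.69), *Cyp39a1* (1.79), *Ntrk2* (1.74), *Lmod3* (1.71), *Evc* (1.60), *Chmp4c* (1.46), *Hsbp1l1* (−1.45), *Dio1* (−1.69), *F2r* (−1.47), *Rdh16f2* (1.35), *Pctp* (−1.12), *Prkd3* (−0.99), *C8b* (−0.89) and *Sh3bp2* (−0.81). Smaller differences were those of *Crot* (−0.63), *Cyp2f2* (−0.55), *Akr1d1* (−0.47), *Abcg5* (0.45), *Cyp8b1* (0.44), *Cyp4v3* (0.29), *Aldh1a1* (−0.26), *Acsl1* (−0.21) and *Hsd17b13* (−0.20). Those of *Lmod3*, *Evc*, *Cyp2c23* (0.37) and *Ivd* (−0.14) passed in 4, 6, 4 and 8 of 14 cases with 1 F1 left out.

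In the F1 female that was left out, 10 genes had an allelic ratio at least 1 log2 unit outside the range of the 14 F1s, of 3548 genes with at least 50 counts in every F1.

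Both alleles were measured in whole liver, and a call says that their RNA differs, not through which sequence. Differences between crosses cover mother, parental origin and any shared handling, which cannot be told apart. The comparison covers 31.3% of expressed autosomal genes, and fewer cells of a type and less RNA per cell cannot be told apart in bulk tissue. Lengths of transcript models, genes with near-identical copies and markers of other tissues were described beside the results, and their part was not tested.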

How the results depend on the processing

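The number of genes different between the alleles (1954) was 2021 with DESeq2, 1894 with the exact Wilcoxon signed-rank test, 1985 and 1958 with other scalings, 1682 to 2232 with other own-allele limits, 1959 with corrected counts and 2019 with all 15 F1s. It dropped to 1284 without the mouse as replicate block, 1133 in the CC019 x CC037 F1s alone and 1284 in males alone. Leaving out 1 F1 gave 1882 to 1923. No gene past the threshold in both settings turned its sign, except 1 with corrected counts.

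Between the crosses, 6 genes became 17 with DESeq2, 9 with sex as covariate, 8 with all 15 F1s, 1 without the pair with markers of other tissues and 2 to 6 with 1 F1 left out. With the replicate number as block 0 passed by edgeR, but same-numbered F1s were not more alike, so the numbers do not pair the samples. Without CC019 x CC037 male 3 the number was 2.

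Between the sexes, 83 genes became 139 with DESeq2, 88 with cross as covariate, 102 with all 15 F1s, 93 without the marker pair and 59 to 96 with 1 F1 left out. The difference between crosses in the CC019 share of counts (0.0764) was −0.0032 as a median log2 ratio, 0.0277 to 0.133 with 1 F1 left out and 0.0285 without the marker pair. That between sexes (−0.0775) was −0.123 to −0.0345, and −0.134 without the pair.

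Of 4930 values of 156 named genes, 7 turned their sign: *Fga* with own totals (0.032) and corrected counts (0.21), *Sgce* and *Cobl* in CC019 x CC037 F1s alone (−10.20 and 0.22), *F2r* in females alone (−0.061) and *Akr1d1* and *Hsbp1l1* in males alone (0.036 and 0.059). A further 77 values were weaker, most without the block, and 19 stronger. The cause was not tested.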
